A study of Mus musculus with 12 samples.

Results

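The 9 genes Sfrp1, Dkk3, Wif1, Apcdd1, Notum, Sostdc1, Nog, Grem1 and Fst encode antagonists of WNT or BMP signalling. Their messenger RNA levels were followed in 12 RNA-seq libraries from mouse skin cells. The genes were chosen by name, with earlier results of these data known. Each of the 9 was found once among the 25965 genes of the files. The libraries come from 3 compartments with 2 libraries per group. The HFSC group (hair follicle stem cells) has a knockout genotype written EGFR_delta_LGR5, here HFSC KO (L95 and L97), and a control written EGFR_fl_fl (L136 and L94). The ORS group (sorted outer root sheath) has a knockout written EGFR_delta_ep (E358 and E359) and an EGFR_fl_fl control (E341 and E344). The IFE group has the same knockout genotype (E358 and E359) and the same control genotype (E341 and E360). All controls thus carry the floxed Egfr allele, and "KO" names libraries by their label. The labels spell IFE out as inner root sheath, and the sorted IFE cells are called only IFE here. The sources used here give no age, strain or Cre driver line, and do not say whether animals were pooled. The series asks how the epidermal growth factor receptor EGFR acts in hair shaft differentiation.

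WNT ligands bind Frizzled and LRP receptors on keratinocytes, stabilise beta-catenin and drive hair follicle growth and hair shaft fate. BMP ligands act through SMAD transcription factors and hold follicle stem cells of the bulge in a resting state. Secreted antagonists bind the ligands or their receptors outside the cell, and follicle stem cells and the dermal papilla beneath the follicle are known sources of them. SFRP1 and WIF1 bind WNT ligands, and DKK3 is the divergent member of the Dickkopf family. APCDD1 is a membrane protein that inhibits WNT signalling at the cell surface, and NOTUM is a secreted enzyme that removes the lipid WNT ligands need. SOSTDC1, also called WISE or ectodin, binds both BMP ligands and the WNT co-receptors. Noggin (Nog) and gremlin 1 (Grem1) bind BMP ligands, and follistatin (Fst) binds activins and, more weakly, BMPs.

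Grem1 and Wif1 had no read in any IFE library, and their promoters are shown as those of members read in HFSC and missing from IFE. Both windows come from the RefSeq promoter table (build GRCm38.p6), and promoters of the other members are not shown. The 200 bases shown run from 250 to 51 bases before the annotated start, 5′ to 3′ on the gene's strand. Capitals mark the motifs found by a search of both strands.
Grem1: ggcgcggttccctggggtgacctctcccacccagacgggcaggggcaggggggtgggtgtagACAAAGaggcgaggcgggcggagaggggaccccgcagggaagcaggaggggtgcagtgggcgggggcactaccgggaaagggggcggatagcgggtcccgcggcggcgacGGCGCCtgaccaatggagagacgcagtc
Wif1: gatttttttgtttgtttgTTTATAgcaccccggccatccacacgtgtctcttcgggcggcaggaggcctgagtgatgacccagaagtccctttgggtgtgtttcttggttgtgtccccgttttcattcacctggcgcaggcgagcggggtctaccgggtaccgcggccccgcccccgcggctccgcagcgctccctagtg
The Grem1 window lies at chr2:113758699-113758898 on the minus strand and the Wif1 window at chr10:121033754-121033953 on the plus strand. The letters searched were CTTTGA or CTTTGT (the core bound by TCF/LEF, the factors of the WNT pathway), GGCGCC (a GC-rich SMAD site), TATAAA (the TATA box) and CAGCTG (an E-box). In the Grem1 window, which is 73.0% G or C, CTTTGT stands on the other strand 188 bases before the start, and GGCGCC 78 bases before it. In the Wif1 window, 61.0% G or C, TATAAA stands on the other strand 232 bases before the start. None of the matches overlaps another. Of 32851 windows of the same length, 23.4% hold either TCF/LEF core, 7.1% hold GGCGCC, 9.1% hold TATAAA and 10.3% hold CAGCTG, which neither window has.

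Gene reads numbered between 11.4 and 27.7 M per library. Levels are given as CPM, a gene's reads per 1e+06 gene reads with TMM scaling between libraries. All HFSC titles start with L and all IFE and ORS titles with E, so the HFSC compartment and the series of libraries cannot be told apart. Egfr itself averaged 332 CPM in HFSC KO against 410.1 in HFSC controls (81.1% of control), 29.4 in ORS KO against 262 (11.2%), and 0.160 in IFE KO against 135.5 (0.118%). In ORS KO it was 3.72 CPM in E358 and 55.2 in E359. In HFSC the target transcript therefore largely remained in the libraries labelled KO, and the same holds beside every HFSC genotype value below. Xist, expressed from the inactive X chromosome of females, had 19 to 96 reads in HFSC KO and 5699 to 10191 in HFSC controls. It had at least 16454 reads in the IFE KO and ORS KO libraries and in ORS control E344, against 11 to 34 in the IFE controls and ORS control E341. Sex and genotype therefore cannot be told apart in HFSC and IFE, and the sex contrast runs in opposite directions in the 2 compartments. Cd34, a marker of bulge stem cells, averaged 1568 CPM in HFSC, 3.27 in ORS and 0 in IFE. Krt1, a keratin of the suprabasal epidermis, averaged 11.2, 12.2 and 1105 CPM in that order. The 9 suprabasal markers summed to 2201 to 2572 CPM in HFSC, 198 to 493 in ORS and 6357 to 8881 in IFE. In limma (adjusted p under 0.05), 3 were higher and 2 lower in HFSC than in ORS (28.7% of all genes). Of 6 outer root sheath and companion markers, 5 were higher and 1 lower in HFSC than in ORS. In ORS against IFE 1 was higher and 1 lower (19.4% of all genes), so this list did not single out ORS. Of 9 inner root sheath markers, the keratin genes Krt25, Krt28 and Krt74 had no read in the IFE libraries, and Gata3, also expressed in epidermis, averaged 939 CPM there. The sum of the list was highest in IFE (875 to 1049 CPM, against 437 to 607 in HFSC and 301 to 383 in ORS), with Gata3 as most of it. The other keratin genes of the list averaged at most 7.97 CPM in IFE, so its keratins go against the spelled-out label and its sum does not.

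Between the compartments the antagonists split into opposite patterns. Sfrp1, Dkk3, Wif1, Sostdc1, Nog and Grem1 were higher in HFSC than in IFE, and Apcdd1 and Fst were lower. Grem1 and Nog marked HFSC, Sostdc1 was highest in ORS, and Apcdd1 fell in order across IFE, ORS and HFSC. Of the 9 members, 8 passed the filter on low reads, which asked for a count of 10 or more, scaled to the median library size, in 2 or more libraries. Grem1 and Wif1 passed only through HFSC and ORS libraries and Nog through the 4 HFSC libraries and 1 IFE library, so the filter itself favoured a difference in these genes. The members were also chosen with earlier results of these data known. The counts and medians of members below are therefore descriptions, as are the p-values of Grem1, Wif1 and Nog between compartments. A gene was called at an adjusted p under 0.05 in limma over 15251 genes, with both genotypes averaged. HFSC against IFE called 8 tested members, 6 higher and 2 lower, where 36.1% of all genes were called (19.9% higher, 16.1% lower). ORS against IFE called 6, with 4 higher and 2 lower, where 19.4% of all genes were called (10.6% higher, 8.82% lower). HFSC against ORS called 5, with 3 higher and 2 lower, where 28.7% of all genes were called (14.3% higher, 14.4% lower). The median log2 fold change of the tested members was 4.23, 1.34 and 1.16 in these 3 comparisons, against 0.18, 0.12 and 0.03 over all genes. In such bulk samples, fewer cells of a type and less RNA per cell cannot be told apart.

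**Figure D1:**
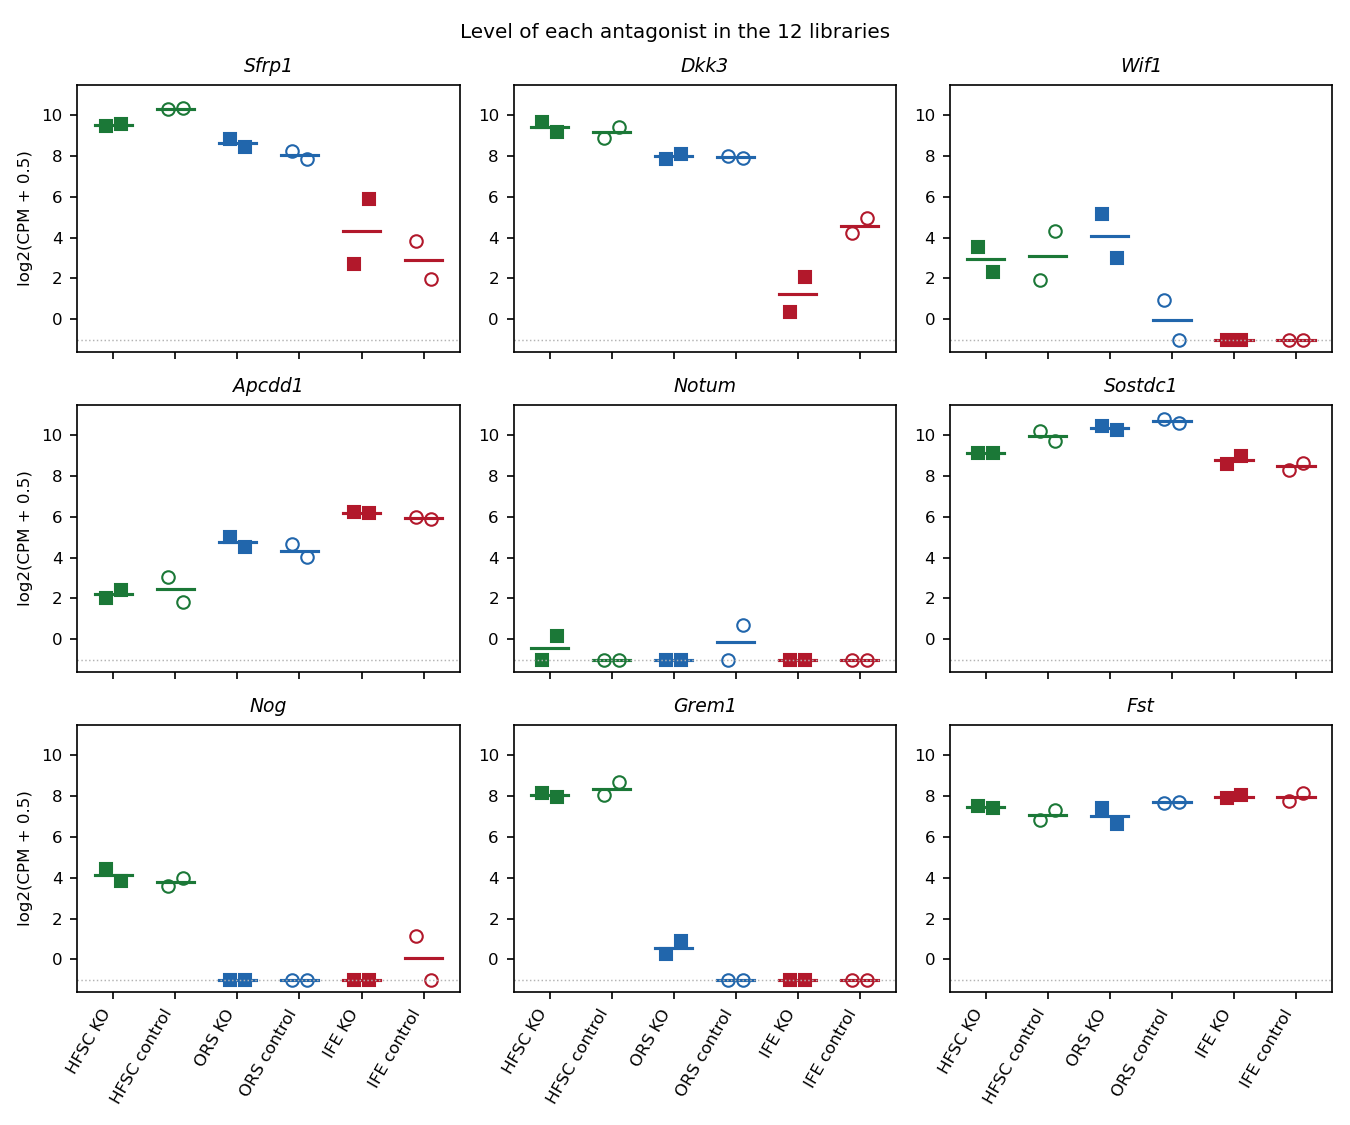
Level of each antagonist as log2(CPM + 0.5) in the 12 libraries, with filled squares for KO, open circles for control and bars for the group mean (n = 2). Dotted lines mark 0 reads. Grem1 and Nog are high in the 4 HFSC libraries alone, and Apcdd1 runs the other way from HFSC to IFE.

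Among the WNT antagonists, Sfrp1 had 699 and 744 CPM in HFSC KO and 1239 and 1317 in HFSC controls. In ORS it had 460 CPM (E358) and 348 (E359) in KO and 303 (E341) and 229 (E344) in controls. The IFE libraries held 6.10 and 59.5 CPM in KO and 13.9 and 3.39 in controls. Every HFSC library thus lay above every ORS library and every ORS library above every IFE library, and IFE KO E359 stood above the other IFE libraries. The mean over 4 libraries was 999.8 ± 323 CPM in HFSC, 335 ± 96.7 in ORS and 20.7 ± 26.2 in IFE (SD). The log2 fold change was 6.30 ± 0.56 (SE) for HFSC against IFE (adjusted p = 5.77e-06) and 4.74 ± 0.56 for ORS against IFE (adjusted p = 0.000107). HFSC against ORS, at 1.56 ± 0.56, missed the threshold with an adjusted p of 0.0543. Over 16 alternative settings that adjusted p ranged between 1.39e-05 and 0.361.

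Dkk3 followed the same order. It had 817 and 575 CPM in HFSC KO and 471 and 688 in HFSC controls, so the genotypes overlapped. ORS libraries were close to each other, with 234 and 271 CPM in KO and 256 and 240.2 in controls. The IFE libraries had 0.793 and 3.75 CPM in KO and 17.96 and 30.7 in controls, the lowest 2 values of all being those of IFE KO. The log2 fold change was 6.38 ± 0.33 for HFSC against IFE (adjusted p = 1.32e-07), 5.06 ± 0.33 for ORS against IFE (adjusted p = 1.08e-06) and 1.32 ± 0.33 for HFSC against ORS (adjusted p = 0.0101). The last of these lost its call on the deposited scale (0.33), among control libraries alone (1.20) and without HFSC control L94 (1.19).

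Wif1 was a low and uneven transcript. HFSC KO had 11.04 and 4.49 CPM and HFSC controls 3.28 and 19.4. ORS KO had 35.2 CPM in E358 and 7.35 in E359, whereas ORS control E341 had 1.39 and E344 had 0. With no read in IFE, where 3 reads per library would be 0.249 CPM, Wif1 was at least 38.3-fold higher in HFSC and at least 44.1-fold higher in ORS by the means. Without HFSC control L94 the HFSC bound was 25.2-fold, and without ORS KO E358 the ORS bound was 11.7-fold. The HFSC difference was called (adjusted p = 0.00127), and the ORS difference too (adjusted p = 0.0148), although 1 ORS library had no read, as in IFE. The ORS call was lost in limma-voom (adjusted p = 0.0715), among controls alone (0.664), without ORS control E341 (0.0674) and without ORS KO E358 (0.0536). HFSC and ORS did not differ detectably for Wif1 (log2 fold change 1.01, 95% interval -0.62 to 2.64), and the sign turned on the deposited scale (-0.047).

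Apcdd1 had the opposite order. IFE libraries held 73.7 and 72.2 CPM in KO and 62.5 and 58.3 in controls. ORS libraries held 31.7 and 22.2 CPM in KO and 24.9 and 15.7 in controls, and HFSC libraries 3.56 and 4.87 in KO and 7.88 and 3.09 in controls. No library of a compartment reached into the next. Apcdd1 was lower by a log2 fold change of -3.72 ± 0.36 in HFSC against IFE (adjusted p = 1.16e-05), -2.21 ± 0.36 in HFSC against ORS (adjusted p = 0.000737) and -1.51 ± 0.36 in ORS against IFE (adjusted p = 0.0127). The ORS call against IFE was lost on the deposited scale (-0.55), among controls alone (-1.59, adjusted p = 0.0815) and without ORS control E344 (-1.352, adjusted p = 0.0588).

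Notum was close to absent. It had 29 reads (1.11 CPM) in ORS control E344 and 10 reads (0.624 CPM) in HFSC KO L97, and none in the other libraries, so it failed the filter and was not tested. A count of 0 allows up to 0.107 to 0.268 CPM per library, counting error only. Notum overlaps Gm11768 and 4732444A12Rik on the opposite strand, and without stated strand use in the counting their reads cannot be told apart.

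Sostdc1, which acts in both pathways, was the most abundant of the 9 per length in all 3 compartments. HFSC KO had 558 and 557 CPM and HFSC controls 1185 and 834. ORS KO had 1393 and 1238 CPM and ORS controls 1781 and 1532, above all HFSC libraries. IFE libraries were lowest, with 389 and 504 CPM in KO and 310.3 and 403 in controls. Sostdc1 was lower in HFSC than in ORS by -0.98 ± 0.14 (adjusted p = 0.000295), and higher than in IFE by 0.91 ± 0.14 in HFSC (adjusted p = 0.000372) and 1.89 ± 0.14 in ORS (adjusted p = 3.04e-06), all as log2 fold changes. These calls and directions held in all alternatives run.

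The BMP antagonists Grem1 and Nog were nearly confined to HFSC. Grem1 had 279.8 and 251 CPM in HFSC KO and 265 and 407 in HFSC controls. Outside HFSC it was seen in ORS KO alone, with 19 reads (0.706 CPM) in E358 and 36 reads (1.36 CPM) in E359. By the means it was at least 1206-fold higher in HFSC than in IFE, where no library held a read. The log2 fold change of CPM + 0.5 was 9.21 ± 0.47 (adjusted p = 1.32e-07 in limma). Against ORS the log2 fold change was 8.42 ± 0.47 (adjusted p = 5.02e-07), with means of 301 and 0.516 CPM. Nog had 21.4 and 13.9 CPM in HFSC KO and 11.51 and 15.2 in HFSC controls, no read in ORS, and 20 reads (1.68 CPM) in IFE control E341 alone. By the means its HFSC level was at least 139-fold higher than in ORS. The log2 fold change was 4.97 ± 0.56 against ORS (adjusted p = 5.04e-05 in limma) and 4.43 ± 0.56 against IFE (adjusted p = 7.74e-05). Neither gene was called between ORS and IFE.

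Fst, the activin-binding member, varied least. IFE libraries had 237 and 264 CPM in KO and 217 and 282 in controls. ORS libraries had 173 and 100.3 CPM in KO and 205 and 212 in controls, and HFSC libraries 180.3 and 173 in KO and 115 and 158 in controls. All HFSC and ORS libraries lay below all IFE libraries. Fst was lower in HFSC than in IFE (log2 fold change -0.69 ± 0.19, adjusted p = 0.0134), a call lost without HFSC control L136 (adjusted p = 0.0620) or without IFE control E360 (0.0547). The ORS difference was marginal at -0.58 ± 0.19 (adjusted p = 0.0487), held in 6 of 18 alternatives and turned to 0.38 on the deposited scale. HFSC and ORS did not differ detectably (-0.11, 95% interval -0.52 to 0.31), except on the deposited scale, where Fst was lower in HFSC (-1.08, adjusted p = 0.000439).

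That scale divides by a library total that includes reads outside genes. Reads in genes were 26.9% to 28.9% of the total in HFSC, 50.6% to 54.6% in ORS and 27.8% to 29.6% in IFE. It shifted the median log2 fold change of all genes by 0.74 in ORS against IFE and by -0.77 in HFSC against ORS, and the scaled values above are relative to genes at large.

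**Figure D2:**
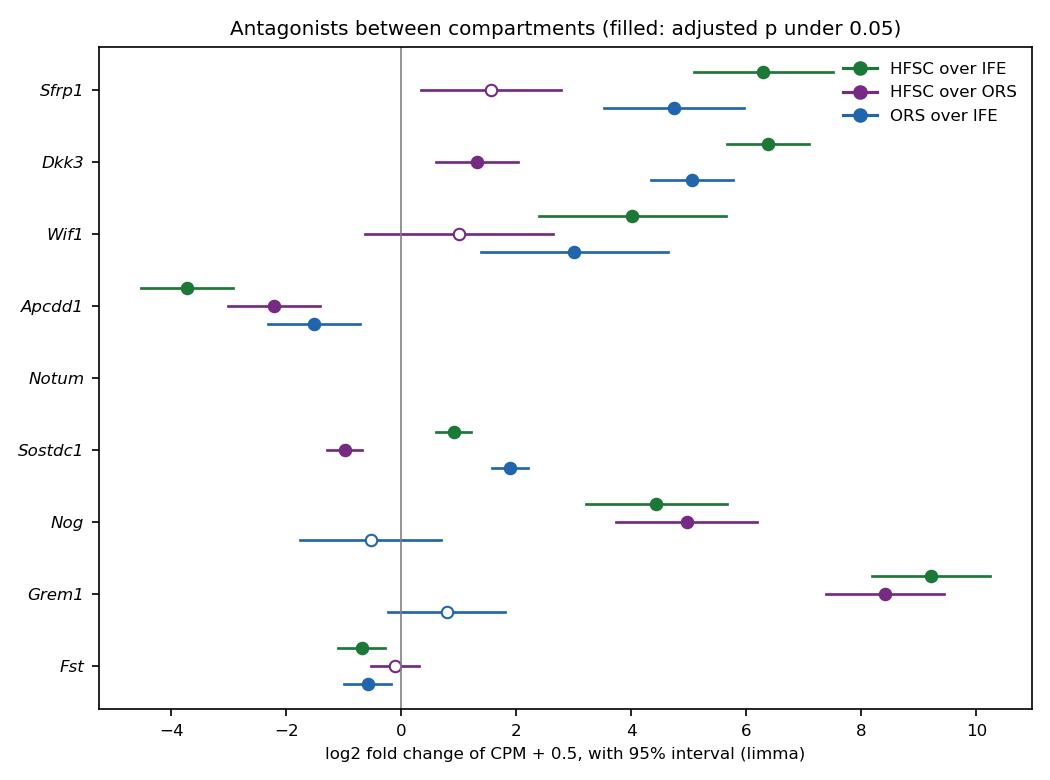
Log2 fold changes of CPM + 0.5 for each antagonist between compartments, with both genotypes averaged, with 95% intervals from limma over 12 libraries. Filled points have an adjusted p under 0.05. Notum was not tested. Sfrp1, Dkk3, Grem1 and Nog lie to the right for HFSC over IFE, and Apcdd1 lies to the left in all 3 comparisons. Fst for ORS over IFE turns positive on the deposited scale.

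Per kilobase of exon, the order of the levels differed by compartment. In HFSC, Sostdc1 averaged 447 CPM per kb, Sfrp1 229, Dkk3 190.0, Grem1 72.5, Fst 35.8, Nog 9.15, Wif1 3.93, Apcdd1 1.01 and Notum 0.0648 (n = 4). There the libraries of Sfrp1 and Dkk3 overlapped, as did those of Nog and Wif1 and of Wif1 and Apcdd1. The ORS order was Sostdc1 (848), Sfrp1 (76.6), Dkk3 (74.5), Fst (39.6), Apcdd1 (4.92), Wif1 (4.53), Grem1 (0.124), Notum (0.116) and Nog at 0. Sfrp1 and Dkk3 overlapped again, as did neighbours from Apcdd1 down to Nog. In IFE, Sostdc1 (229) and Fst (57.3) led, followed by Apcdd1 (13.9), Sfrp1 (4.74), Dkk3 (3.96) and Nog (0.248). The neighbours from Apcdd1 down overlapped. Fst thus stood at rank 2 in IFE, 4 in ORS and 5 in HFSC.

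The genotype comparison asks whether deletion of Egfr goes with a different level of each antagonist inside a compartment. No member was called in any compartment. In HFSC 0 of 8 tested members were called (0.0363% of 13778 genes), in ORS 0 of 7 (0% of 14449 genes) and in IFE 0 of 5 (0% of 14449 genes). At an unadjusted p under 0.05 there were 2 members in HFSC (7.63% of genes), 2 in ORS (3.38%) and 1 in IFE (7.54%). The limma-voom fit called no member either. Of the 5 genes called in HFSC, 4 were among the 5 sex-linked genes listed (3 higher and 1 lower in libraries labelled KO). The KO and control libraries did not overlap for 3 members in HFSC, 5 in ORS and 2 in IFE, where 38%, 31.4% and 30.7% of all genes did not overlap. With 2 libraries per group, the values below are descriptions of these libraries.

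In HFSC, Sfrp1 and Sostdc1 had the lowest unadjusted p. Sfrp1 averaged 722 ± 31.8 CPM in libraries labelled KO and 1278 ± 55.8 in controls (SD, n = 2 each), a log2 fold change of -0.83 (95% interval -1.17 to -0.50, adjusted p = 0.253 in limma). Sostdc1 averaged 557 ± 1.13 CPM in libraries labelled KO and 1009 ± 248 in controls (-0.84, -1.29 to -0.39, adjusted p = 0.382 in limma). Without control L94, which left 1 control library, the log2 fold change of Sostdc1 was -1.10. Over the other alternatives both kept their sign. The 10 bulge stem cell markers summed to 27012 and 32298 CPM in libraries labelled KO against 42828 and 44056 in controls, and Krt15 made up most of the sum (21323 and 34680 CPM on average, in that order). Over the list the median log2 fold change was -0.076, with 0 called in limma and 1 at an unadjusted p under 0.05, Krt15. Outer root sheath and companion markers summed to 5482 to 5871 CPM in libraries labelled KO and 3514 to 4783 in controls. The part of these markers in the values was not tested. Fst was the third member without overlap, with 176 ± 5.49 CPM in libraries labelled KO and 136.4 ± 30.4 in controls (0.38, -0.11 to 0.87, adjusted p = 0.705 in limma). Grem1 (-0.32, -0.85 to 0.21), Dkk3 (0.26, -0.30 to 0.82) and Nog (0.36, -0.64 to 1.37) had intervals across 0, as did Wif1 and Apcdd1, whose intervals were wider.

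In ORS the value farthest from 0 was that of Wif1, at 21.3 ± 19.7 CPM in KO against 0.694 ± 0.981 in controls. Its log2 fold change was 4.11 (95% interval 1.82 to 6.40) with an unadjusted p of 0.00242 in limma and an adjusted p of 1. The KO libraries differed from each other, since E358 had 947 Wif1 reads with Egfr at 3.72 CPM and E359 had 195 with Egfr at 55.2 CPM. A relation between Wif1 and Egfr levels was not tested. Dermal papilla markers, 12 genes of a cell type known to express Wif1, summed to 33.9 CPM in E358 and 106 in E359 against 53.2 and 66.8 in the controls. Fgf10 and Sox2 of that list had no read in any library. Only 3 of the 12 had reads in E358 and 6 in E359, and the part of these cells in the Wif1 level was not tested. Sebaceous markers summed to 115 to 130.3 CPM in ORS KO and 172 to 306 in controls (median log2 fold change -1.354, 3 of 6 at an unadjusted p under 0.05, 0 called in limma), and their part was not tested either. Grem1 was also read in both KO libraries and in neither control, but less in E358 (19 reads) than in E359 (36 reads). Its log2 fold change was 1.58 (adjusted p = 1 in limma). By the means it was at least 9.30-fold higher in KO, and at least 6.36-fold without E359. Fst averaged 137 ± 51.5 CPM in KO and 209 ± 5.01 in controls (-0.66, -1.28 to -0.04, unadjusted p = 0.0390 and adjusted p = 1 in limma). Sostdc1 (-0.33, -0.76 to 0.11) and Sfrp1 (0.61, -1.34 to 2.55) did not overlap between genotypes but had intervals across 0. Dkk3 was nearly level, with 252 ± 26.6 CPM in KO and 248 ± 11.03 in controls.

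In IFE, Dkk3 stood apart. It averaged 2.27 ± 2.09 CPM in KO, where the libraries held 10 and 47 reads, and 24.3 ± 9.01 CPM in controls. The log2 fold change of -3.36 (95% interval -4.57 to -2.14) had an unadjusted p of 9.45e-05 in limma and an adjusted p of 0.215. It was called when all 12 libraries were fitted together (-3.36, adjusted p = 0.0164), and over its 14 alternatives the adjusted p ranged between 0.0164 and 0.997. Without KO E359, which left 1 KO library, the log2 fold change was -4.22. In the same cells Sfrp1 had 32.8 ± 37.8 CPM in KO and 8.62 ± 7.40 in controls (1.42, -0.53 to 3.37), and its sign turned without KO E359. Apcdd1 was 73.0 ± 1.07 CPM in KO and 60.4 ± 3.003 in controls, with no overlap (0.28, -0.62 to 1.17, adjusted p = 0.940 in limma). Sostdc1 (0.33, -0.11 to 0.76) and Fst (0.02, -0.60 to 0.64) had intervals across 0. Outer root sheath and companion markers summed to 3650 to 5022 CPM in IFE KO and 2143 to 3260 in IFE controls. Their median log2 fold change was -1.05, opposite in sign to the sum, with 4 of 6 at an unadjusted p under 0.05 and 0 called in limma. Krt17, most of the sum, averaged 4246 CPM in KO and 2563 in controls, and Krt6a, Krt6b and Krt79 had lower means in KO. Sebaceous markers summed to 102 to 125 CPM in KO and 163 to 177 in controls. The part of these markers in the Dkk3 values was not tested. Nog was read in 1 control library alone, and Wif1, Grem1 and Notum in none.

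**Figure D3:**
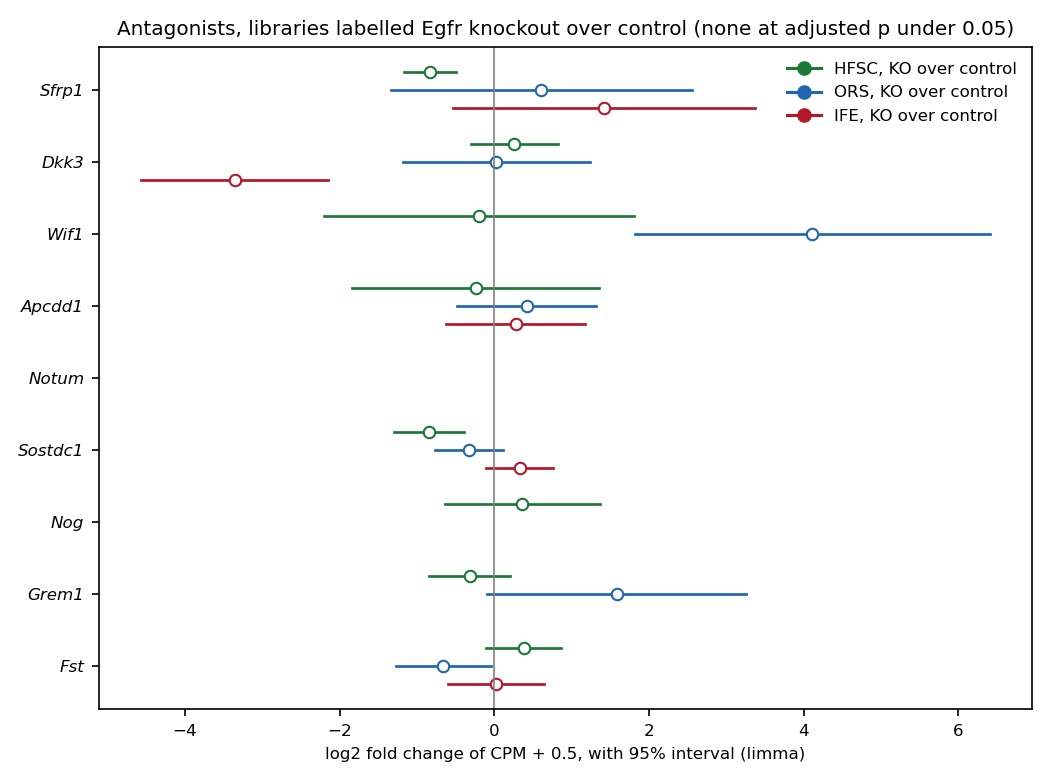
Log2 fold changes of CPM + 0.5 for each antagonist in libraries labelled KO over control, by compartment, with 95% intervals from limma (n = 2 per group). Open points mark that none had an adjusted p under 0.05. Dkk3 in IFE (-3.36) and Wif1 in ORS (4.11) lie farthest from 0.

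Whether the genotype effect differed between compartments was tested as an interaction, and 0 members were called in each of the 3 differences, where 0% of all genes were called. For Dkk3 the HFSC effect minus the IFE effect was 3.62 (95% interval 2.19 to 5.06, adjusted p = 0.141 in limma), and the ORS effect minus the IFE effect was 3.38 (1.67 to 5.09, adjusted p = 0.999). Without IFE KO E359, which left 1 IFE KO library, the HFSC and IFE difference of Dkk3 was 4.48. For Wif1 the HFSC effect minus the ORS effect was -4.30 (-7.56 to -1.04, adjusted p = 1 in limma). For Sostdc1 the HFSC effect minus the IFE effect was -1.16 (-1.78 to -0.54, adjusted p = 0.329 in limma). These differences share the libraries of the effects above and add no independent measurement. Xist was high in IFE KO and HFSC controls and low in IFE controls and HFSC KO. The sex contrast thus runs in opposite directions in HFSC and IFE. It cannot be told apart from their difference in genotype effect, where the 5 sex-linked genes had a median log2 value of 12.9.

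The other genes of both pathways were taken from lists of ligands, receptors, antagonists and targets. None of their tested genes was called between genotypes in any compartment in limma. At an unadjusted p under 0.05, 7 of 12 BMP and activin ligands passed in HFSC, where 7.63% of all genes did (median log2 fold change 0.36). Bmp2, Bmp7, Gdf11 and Inhba had higher means in libraries labelled KO, and Bmp4, Gdf5 and Gdf10 lower ones. Of 9 WNT target genes 3 passed in HFSC, Lef1, Tcf7 and Nkd2, all with higher means in libraries labelled KO (list median 0.79). Elsewhere in HFSC, 3 of 10 further secreted BMP and activin antagonists and 2 of 9 BMP target genes passed. WNT receptors had 1 of 20, further WNT antagonists 1 of 5, BMP and activin receptors 1 of 6 and WNT ligands 0 of 10. In IFE 3 of 15 WNT ligands passed (7.54% of all genes), and in ORS 2 of 12 (3.38%). Xist was low in HFSC libraries labelled KO and high in their controls, and the part of sex in the HFSC counts was not tested. The share of all genes called between compartments, to set beside the list counts below, was 36.1% in HFSC against IFE, 19.4% in ORS against IFE and 28.7% in HFSC against ORS. Between compartments, BMP target genes were mostly higher in HFSC. Of 9 tested, 8 were higher and 0 lower in HFSC than in IFE (median log2 fold change 2.74), and 7 were higher and 0 lower in HFSC than in ORS (median 2.18). Id2, an inhibitor of helix-loop-helix factors, averaged 1382 CPM in HFSC, 26.9 in ORS and 98.2 in IFE. Id1 averaged 312 CPM in HFSC, 71.7 in ORS and 55.1 in IFE. The homeobox gene Msx2 had 20.9, 1.26 and 5.69 CPM in the same order, and the decoy receptor gene Bambi 10.2 CPM in HFSC against 1.31 in ORS. In ORS against IFE 2 of 9 were higher, Id4 and Smad6, and 3 were lower, Id2, Msx2 and Bambi. The deposited scale gave 5 higher and 1 lower in ORS against IFE, and 7 higher and 1 lower in HFSC against ORS. The high BMP antagonists Grem1 and Nog and the high BMP target genes were thus found in the same HFSC libraries, by levels alone.

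WNT ligands ran the other way. Of 15 tested, 10 were lower and 1 higher in HFSC than in IFE (median -3.29), and 10 were lower and 2 higher in ORS than in IFE (median -2.20). Wnt3 averaged 2.93 CPM in HFSC, 4.37 in ORS and 284 in IFE. Wnt16 and Wnt7a had no read in HFSC, where they were at least 204-fold and at least 102-fold lower than in IFE. Wnt5a was an exception, with 60.2 CPM in ORS against 1.57 in IFE. Of 13 tested in HFSC against ORS, 4 were lower, among them Wnt6 and Wnt5a, and 1 was higher, Wnt10a. The IFE libraries, which held most WNT ligand transcripts, held the least Sfrp1, Dkk3, Wif1 and Sostdc1 of the 3 compartments. Apcdd1 went the other way and was highest in IFE (66.7 CPM on average, against 23.6 in ORS and 4.85 in HFSC). The summed levels of the further WNT antagonists, described below, overlapped between IFE and each of the other compartments. The WNT antagonists thus did not all run opposite to the ligands.

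WNT receptors and their modulators were mixed. Of 20 tested, 11 were higher and 4 lower in HFSC than in IFE, 7 and 4 in ORS against IFE, and 6 and 3 in HFSC against ORS. On the deposited scale these became 9 and 2 in ORS against IFE and 2 and 9 in HFSC against ORS, where the median turned to -0.53 against 0.42 after TMM scaling. Lgr5, the R-spondin receptor of cycling follicle cells, averaged 277 CPM in HFSC, 398 in ORS and 1.10 in IFE, and Fzd7 averaged 209, 247 and 10.95 CPM in that order. Fzd10 averaged 5.02 CPM in HFSC, 6.48 in ORS and 157 in IFE. Of 9 tested WNT target genes, 3 were higher and 3 lower in HFSC than in IFE, 3 and 1 in ORS against IFE, and 0 and 3 in HFSC against ORS. Lef1, a transcription factor of the hair matrix, averaged 12.5 CPM in HFSC, 18.7 in ORS and 180.1 in IFE, and the cyclin gene Ccnd1 averaged 89.8 CPM in HFSC against 419.9 in ORS.

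**Figure D4:**
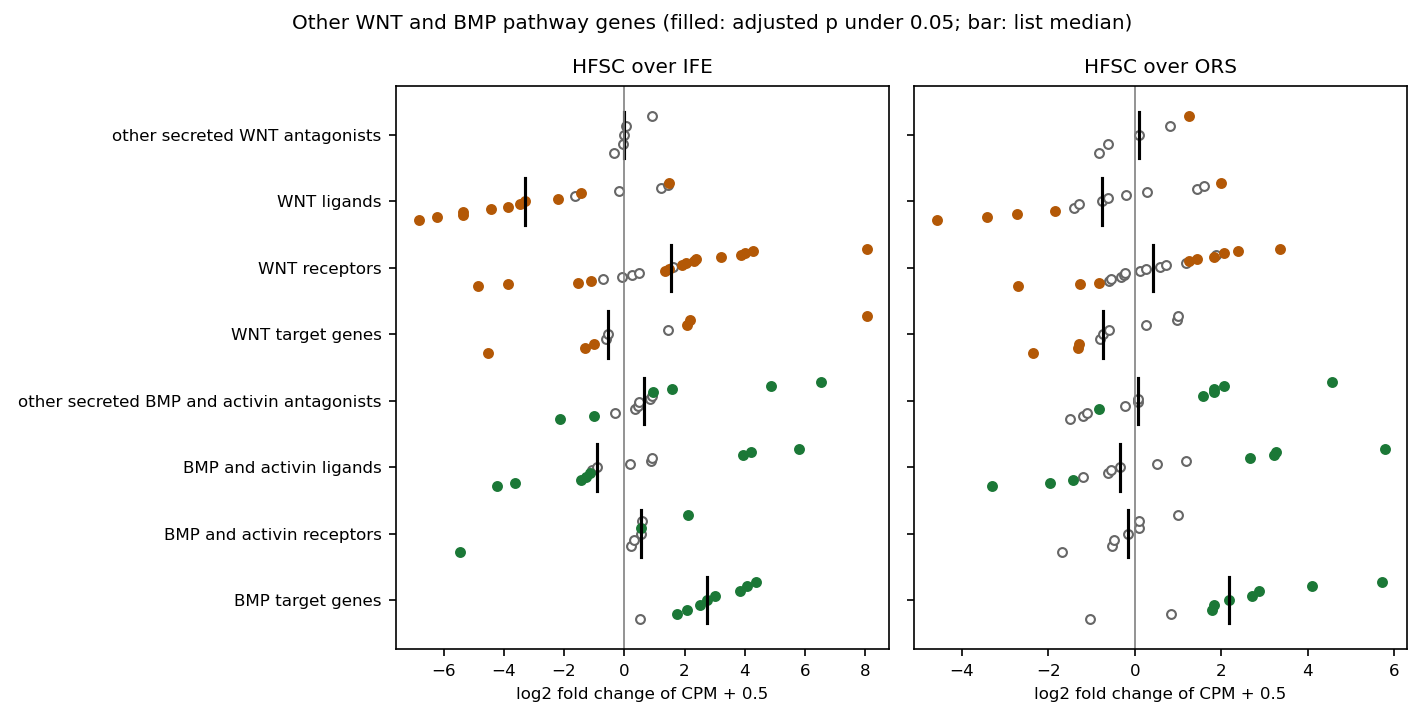
Log2 fold changes of CPM + 0.5 for the tested genes of each pathway list in HFSC over IFE (left) and HFSC over ORS (right), both genotypes averaged. Points in orange (WNT) or green (BMP) have an adjusted p under 0.05, open points do not, and black bars are list medians. The BMP target genes that were called lie to the right in both panels, and WNT ligands to the left in HFSC over IFE.

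BMP and activin ligands split, with 3 higher and 5 lower of 13 in HFSC against IFE, 1 and 2 in ORS against IFE, and 4 and 3 in HFSC against ORS. On the deposited scale these were 3 and 2 in ORS against IFE and 4 and 6 in HFSC against ORS. Gdf10 averaged 35.3 CPM in HFSC with no read in IFE (at least 142-fold), and Bmp6 averaged 8.87 CPM in HFSC with no read in IFE. Bmp2 was nearly missing in ORS, at 2.49 CPM against 51.5 in IFE, and Bmp4 was lower in HFSC (1.44 CPM) than in ORS (16.9 CPM). Of 7 BMP and activin receptors, 2 were higher and 1 lower in HFSC and in ORS against IFE, which for HFSC is close to the 36.1% of all genes called. Bmpr1b was the lower gene in both, and 0 were called in HFSC against ORS in limma (1 at an unadjusted p under 0.05). The deposited scale gave 5 higher and 1 lower receptors in ORS against IFE and 0 higher and 5 lower in HFSC against ORS.

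Of 12 tested secreted BMP and activin antagonists, Smoc1, Fstl1, Bmper and Crim1 were higher and Htra1 and Smoc2 lower in HFSC than in IFE. Smoc1 averaged 82.5 CPM in HFSC, 4.97 in ORS and 0.571 in IFE, an order like that of Grem1. Fstl1 averaged 146 CPM in HFSC, 376 in ORS and 7.45 in IFE. In HFSC against ORS 5 of 12 were higher and 1 lower (median 0.08), and on the deposited scale 3 were higher and 5 lower, with the median at -0.71. Of 12 further WNT antagonists in the files only 5 were tested, and 1 was called, the membrane glycoprotein gene Tpbg, which was lower in ORS (43.2 CPM) than in IFE (100.1 CPM) and higher in HFSC (101.6 CPM) than in ORS. On the deposited scale 2 of the 5 were higher and 0 lower in ORS against IFE, and 0 higher and 1 lower in HFSC against ORS. No member of that list was called in HFSC against IFE in limma (0 at an unadjusted p under 0.05). Its counts were thus close to or below the 19.4%, 28.7% and 36.1% of all genes called in ORS against IFE, HFSC against ORS and HFSC against IFE. Dkk1 had no read in any library.

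Marker genes of other cell types moved with the compartments too. The bulge list summed to 27012 to 44056 CPM in HFSC, 8849 to 11157 in ORS and 6081 to 8191 in IFE, with Krt15 as most of it. Of the 10 bulge genes, 3 were higher and 1 lower in HFSC than in ORS (median log2 fold change -0.060), so the list as a whole did not follow its sum there. In HFSC against IFE 8 were higher and 1 lower (median 2.63). Dermal papilla markers, from cells known to secrete Nog and Sostdc1, summed to 9.39 to 16.5 CPM in HFSC, 33.9 to 106 in ORS and 10.7 to 21.6 in IFE. In HFSC 3 of these 12 genes had no read, in ORS 5 and in IFE 8. The 11 fibroblast markers summed to 772 to 1267 CPM in HFSC, 196 to 263 in ORS and 855 to 1384 in IFE, and the 6 melanocyte markers to 200.4 to 307 CPM in HFSC, 71.4 to 76.5 in ORS and 14.5 to 29.4 in IFE. The 7 leukocyte markers summed to 30.4 to 64.9 CPM in HFSC, 11.4 to 14.8 in ORS and 11.6 to 24.4 in IFE. Ptprc, the pan-leukocyte marker, and Cd207 had no read in any library, but of 3 tested the antigen presentation genes Cd74 and H2-Aa were higher in HFSC than in IFE and in ORS. The part of these cells in the antagonist levels was not tested.

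The members were also described by the genes whose log2(CPM + 0.5) resembled theirs most over the 12 libraries, with Pearson's r. The points share compartments, library series and depth, so the values carry no test. Nog was most like Gm13652 (0.994) and Cyp26b1 (0.992), Grem1 most like Gm16277 (0.989) and Gfra1 (0.989), and all 4 of these had at most 0.504 CPM outside HFSC on average. Dkk3 was most like Mme (0.990) and Egfl6 (0.986), and Sfrp1 most like Tpst1 (0.981) and Lrrn3 (0.976). Apcdd1 was most like Mrp63 (0.995) and Gm6180 (0.990), and Sostdc1 most like Rcn3 (0.950) and Bgn (0.947). Wif1 was most like Samd12 (0.978) and Zfp358 (0.930), and Fst, with the weakest likeness, most like Sod1 (0.936) and Rps23 (0.899). Among the members themselves, Nog and Grem1 (0.949) and Sfrp1 and Dkk3 (0.853) were the most alike pairs, and Apcdd1 and Grem1 (-0.911) the most opposed.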

How the data were processed

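The 9 members and all gene lists were chosen with earlier results of these data known. RNA was prepared with PicoPure and SMARTer Ultra kits, per the labels' protocols, and sequenced as paired reads of 150 bp. The deposited values are log2 reads per 1e+06 of the library total, as the authors normalized them, and hold 0.9 read for a gene with none. Trim Galore, DESeq2 and mm10 stand in the submitters' processing notes without roles, and the sources used here name no aligner, counter, annotation or strand setting. From the log2 values whole reads per gene were recovered (at least 99.99% whole within 0.2 read), scaled by TMM (trims of 30% and 5%) and tested as log2(CPM + 0.5), which understates changes of low genes. The test was limma 3.58.1 (R 4.3.3, statmod 1.5.0, trended robust prior). Genes needed 10 scaled reads in 2 libraries and 15 in total. Genotype effects in IFE and ORS came from 8 libraries fitted together (4 residual degrees of freedom), those in HFSC from 4 libraries (2), and compartments and differences involving HFSC from all 12 (6). Calls were two-sided Benjamini-Hochberg adjusted p under 0.05 over all tested genes. Exon lengths are from GENCODE for mm10 within each gene's span in the files. The fits were run on simulated counts for some of the comparisons. The spread between simulated libraries was assumed and not estimated from these data, so that run cannot show how the fits do here. Named genes are all members, the 2 most alike genes per member and, from each list, up to 4 called genes per comparison by absolute fold change. Id1, Smoc2, Dkk1, Egfr, Xist and the marker genes were named outside this rule after their values were seen. Bmp7, Gdf11, Inhba, Gdf5 and Nkd2 were also named outside it, for their unadjusted genotype p in HFSC. Replicates are not labelled as separate animals, and p-values then cover only the spread between these libraries, possibly technical. The alternatives changed the scaling, pseudocount, filter, model (limma-voom), samples in the fit, contrast (controls only) and replicate block, or left out each library in turn.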

Additional observations from a re-analysis of the deposited data

Results flagged for a closer look

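In groups of 4 libraries that pool both genotypes, 3 values lay far from the rest. Nog in IFE control E341 (1.68 CPM), Notum in HFSC KO L97 (0.624 CPM) and Notum in ORS control E344 (1.11 CPM) were each the only library of their compartment with reads. Where 1 library alone has reads the flag is certain, so no rate of chance flags applies to these values. The genotype effects in HFSC and ORS ran in opposite directions for Fst and Sfrp1. Every HFSC library labelled KO lay on one side of its controls and every ORS KO library on the other. Of all genes, 38% did not overlap between genotypes in HFSC and 31.4% in ORS. The share that did so in opposite directions was not counted. Xist was low in HFSC KO and high in its controls, and high in ORS KO and ORS control E344 but low in ORS control E341. The HFSC effect minus the ORS effect was 1.05 for Fst (unadjusted p = 0.0166, adjusted p = 1 in limma) and -1.43 for Sfrp1 (unadjusted p = 0.225, adjusted p = 1 in limma), both as log2 values, so neither difference passed the correction.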

How the results depend on the processing

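Of the member fold changes under an alternative, 956 kept the reported direction and side of the threshold, 9 gained a call, 23 lost one without turning, and 22 turned sign. Members called between genotypes numbered 0 as reported and 1 in IFE with all 12 libraries fitted together (Dkk3). Leaving out each library in turn gave 0 to 1 in IFE, in HFSC and in the difference of HFSC and IFE effects, and 0 in the other genotype comparisons. ORS against IFE called 3 members among control libraries only, a fit with fewer samples, and 4 to 5 when leaving out a library. HFSC against IFE then called 7 to 8 and HFSC against ORS 4 to 5.

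On the deposited scale Fst in ORS against IFE turned to 0.38 and Wif1 in HFSC against ORS to -0.047. All other reversals came from leaving out a library and concern values that were not called, given here as ranges of log2 values. The genotype effect in HFSC ranged from -0.85 to 0.38 for Apcdd1, from -0.0061 to 0.53 for Dkk3 and from -1.387 to 0.9989 for Wif1. In ORS that of Dkk3 ranged from -0.080 to 0.14. In IFE that of Fst ranged from -0.17 to 0.21 and that of Sfrp1 from -0.18 to 3.01. The HFSC minus IFE effect ranged from -1.11 to 0.11 for Apcdd1 and from -1.387 to 0.9998 for Wif1, and the HFSC minus ORS effect of Dkk3 from -0.028 to 0.51. The ORS minus IFE effect ranged from -0.18 to 0.44 for Apcdd1 and from -2.41 to 0.78 for Sfrp1. Fst in HFSC against ORS ranged from -0.29 to 0.090. The cause was not tested.

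Counts of all genes called moved by over 1.5 times on the deposited scale, to 8372 for ORS against IFE (2963 as reported) and 7869 for HFSC against ORS (4381 as reported). Among controls only they were 1386 for ORS against IFE, 3331 for HFSC against IFE (5499 as reported) and 2417 for HFSC against ORS. Genotype calls in IFE were 0 as reported, 24 with all 12 libraries, 5 with the compartment alone, 3 with a filter at 50 reads and 53 without KO E359. In HFSC they were 5 as reported, 0 without a filter and in limma-voom, 1 with all 12 libraries, and 1 to 45 when leaving out a library. The difference of HFSC and IFE effects gave 1 call with a pseudocount of 0.1, 92 without IFE KO E359, 8 without IFE control E341 and 2 without IFE KO E358. That of HFSC and ORS effects gave 2 in limma-voom, 6 without ORS control E344 and 3 without ORS KO E359. Genotype calls in ORS were 2 without ORS control E344, and the difference of ORS and IFE effects gave 2 without ORS control E341 and 1 without IFE KO E359.

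Libraries with the same title number in IFE and ORS (E341, E358 and E359) deviated together with r of 0.049 to 0.056. With 2 libraries per group the deviations mirror each other, so E358 and E359 have the same r. This r cannot decide whether a title number marks the same animal. Xist was low in both E341 libraries and high in both libraries of E358 and of E359. The main fits did not take the numbers as pairs. With the title number as a replicate block, 0 members were called between genotypes in IFE and in ORS, and 3253 genes in ORS against IFE. Grem1 in ORS against IFE among controls, and Nog there without IFE control E341, had no reads to give a value. Depth limits Notum, Nog and Wif1 most, since 3 reads are up to 0.268 CPM.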
